A study of Mus musculus with 6 samples.

Results

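The 7 genes described here, Gabra2, Gabra3, Gabrb1, Gabrb2, Gabrg3, Gabrr1 and Gabrr2, encode subunits of ionotropic GABA receptors and were chosen by their gene symbols among the 32285 genes of the count matrices. All 7 symbols were found, each once. The data are single-nucleus RNA-seq libraries from whole retinas of wild-type C57BL6/J mice, 3 libraries at 3 months of age and 3 at 18 months. No mouse in these libraries is labelled as treated, no transgene or deletion is named, and nothing in the labels says whether a library came from 1 animal or from several, so p-values measure the spread between libraries, which may be technical. The questions put to the data were where in the retina each subunit gene was expressed and whether its level differed between the 2 ages.

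GABA is the main inhibitory transmitter of amacrine and horizontal cells, and its ionotropic receptors are chloride channels built of 5 subunits. Alpha, beta and gamma subunits make up the synaptic GABA-A receptors, in which GABA binds between alpha and beta subunits and the gamma subunit anchors the receptor at the synapse. The rho subunits form a separate class, once called GABA-C receptors, which is insensitive to bicuculline, desensitises slowly and is best known from the axon terminals of retinal bipolar cells. The C57BL/6J strain is known to carry an intronic change in Gabra2 that lowers its expression in brain, and all mice of this study share that strain background.

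Gabrr1 and Gabrr2, the genes of the rho1 and rho2 subunits, lie side by side on chromosome 4 on the same strand, at 33132521-33163588 and 33062999-33095865 (mm10, GENCODE M21), with 36.655 kb between them. Their upstream sequences are shown because both genes were highest in the same cells, as described below. Each runs 5′ to 3′ on the plus strand from 250 bases before the RefSeq start site to the last base before the annotated gene (RefSeq, GRCm38.p6; chr4:33132306-33132520 for Gabrr1 and chr4:33062862-33062998 for Gabrr2).
Gabrr1: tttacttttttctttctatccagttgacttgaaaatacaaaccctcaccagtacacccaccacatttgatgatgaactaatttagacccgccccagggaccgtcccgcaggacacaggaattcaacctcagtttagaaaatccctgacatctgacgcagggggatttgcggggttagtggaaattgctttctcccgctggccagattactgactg
Gabrr2: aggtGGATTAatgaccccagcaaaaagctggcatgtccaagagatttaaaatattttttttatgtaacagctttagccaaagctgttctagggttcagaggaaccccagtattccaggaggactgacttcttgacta
The capitals mark a match to TAATCC on the opposite strand, the core that the homeodomain factors Otx2 and Crx of bipolar cells and photoreceptors bind. In the 250 bases before the start sites it was found once for Gabrr2, beginning 246 bases upstream, and not for Gabrr1. Of the other members Gabra2, which was not highest in bipolar cells, held it once, 139 bases upstream. On both strands, 6.25% of 32851 RefSeq promoter windows of that length held TAATCC. The other members lie on chromosome 5 (Gabra2 at 70957597-71095849, minus strand, and Gabrb1 at 71658113-72149037, plus strand), chromosome 7 (Gabrg3 at 56716465-57387188, minus strand), chromosome 11 (Gabrb2 at 42419757-42629028, plus strand) and chromosome X (Gabra3 at 72432681-72656848, minus strand). All 7 are protein-coding. The first 0.196 kb of Gabrb1 overlap Gabra4 on the opposite strand.

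Nuclei were placed in 8 retinal classes after clustering without any GABA receptor gene, so that a member's level played no part in the cluster a kept nucleus joined. The doublet scores, by which 4989 nuclei had been removed before, were computed without leaving these genes out. Of 50241 nuclei kept, 31195 fell in these classes, and 17965 in groups that were given no class, for too few markers, markers or leading genes of another class, very high or low UMI counts, or leading haemoglobin genes. The rest were microglia, vascular or pigment epithelial nuclei. Library totals as deposited ran from 15905689 to 29340705 UMIs, unique molecular identifiers that count RNA molecules, and libraries shared at most 74 barcodes, or 0.506% of the smaller library. Replicate 3 at 18 months stood apart: 72.1% of its nuclei had no class, against 12.4% to 33.03% in the other 5 libraries. Both libraries numbered replicate 1 came from Cell Ranger 7.1.0 and the other 4 from 7.2.0, so that software release and replicate number overlap. Levels are given as CPM, UMIs of a gene per 1000000 UMIs of the class in that library, as mean ± SD over libraries. They compare 1 gene between classes, not 1 gene with another. The genes differ in length from 31.068 kb (Gabrr1) to 670.724 kb (Gabrg3), and whether introns were counted is not given.

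**Figure D1:**
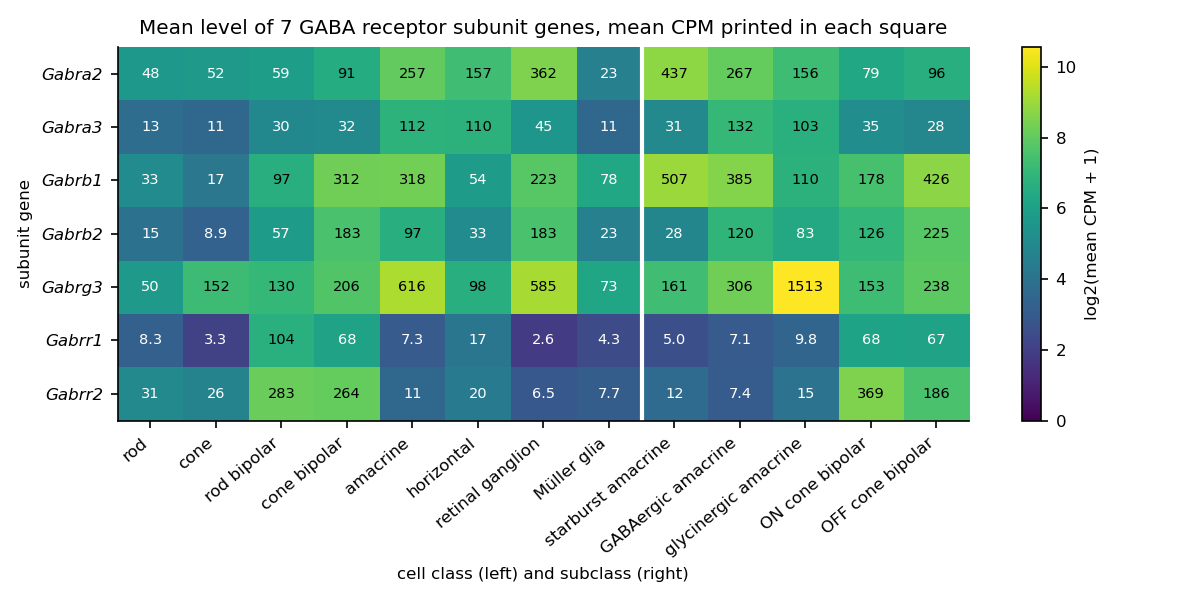
Mean level over 6 libraries of each subunit gene (rows) in 8 cell classes and 5 subclasses (columns); colour is log2(mean CPM + 1) and the number in each square is the mean CPM. The rho genes stand out in bipolar cells, and Gabrg3 reaches 1513 CPM in glycinergic amacrine cells.

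The rho subunits were bipolar cell genes. Gabrr1, which can form a receptor on its own, averaged 104 ± 40.3 CPM (SD, n = 6) in rod bipolar cells, the ON bipolar type that collects rod signals, and 67.5 ± 19.7 CPM in cone bipolar cells. In rod bipolar cells it was at 89.7, 151 and 87.5 CPM in the 3 libraries of 3 months and at 65.1, 158 and 72.6 CPM in those of 18 months. In cone bipolar cells it was at 77.7, 73.7 and 52.7 CPM at 3 months and at 78.8, 87.2 and 35.0 CPM at 18 months. The ages overlapped in both classes, and the lowest of these 12 values, 35.0 CPM, lay above the highest value in any other class, 27.3 CPM in horizontal cells of replicate 1 at 3 months. The remaining classes averaged from 2.64 ± 3.33 CPM in ganglion cells to 16.7 ± 6.24 CPM in horizontal cells.

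Gabrr2, whose product can join rho1 in mixed receptors, was highest in the same 2 classes. It averaged 283 ± 93.7 CPM in rod bipolar cells, with 178, 362 and 340.1 CPM at 3 months and 161, 375 and 284 CPM at 18 months. In cone bipolar cells it averaged 264 ± 103 CPM, with 249, 433 and 227 CPM at 3 months and 215, 327 and 135 CPM at 18 months. No library of any other class exceeded 67.3 CPM, the value of rods in replicate 3 at 18 months. Replicate 1, the release 7.1.0 library, was the lowest of its age in rod bipolar cells at both ages. Rods averaged 30.7 ± 21.6 CPM, cones 25.5 ± 20.4 CPM and ganglion cells 6.46 ± 6.97 CPM.

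**Figure D2:**
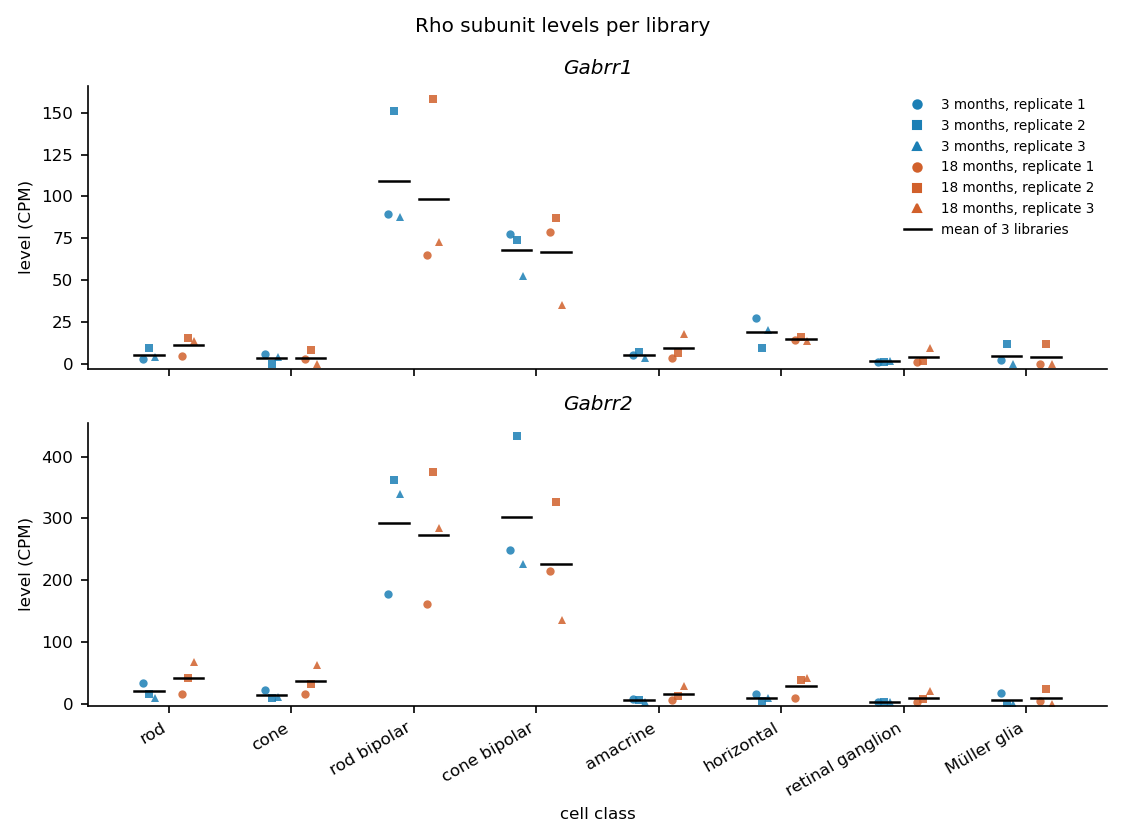
Level (CPM) of Gabrr1 and Gabrr2 in each library by cell class; points are libraries, coloured by age, and lines are means of 3 libraries. Rod and cone bipolar cells lie above every library of the other classes, and the 2 ages overlap in both.

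Detection in single nuclei showed the same split among nuclei with at least 1000 UMIs, each thinned to that number. Shallower nuclei were left out, 7397 of 11354 rods, 173 of 968 rod bipolar and 277 of 1451 cone bipolar nuclei among them. Gabrr1 was found in 11.3% of rod bipolar and 7.84% of cone bipolar nuclei against 0.708% of rods, a class taken here as the level of free RNA. Gabrr2 was found in 24.4% of rod bipolar and 22.4% of cone bipolar nuclei against 2.30% of rods. In single libraries the rod share was 0% to 1.41% for Gabrr1 and 0.551% to 6.06% for Gabrr2. The lowest bipolar shares were 4.92% and 11.7%, both in cone bipolar nuclei. Unthinned, the shares in rod bipolar nuclei were 21.4% for Gabrr1 and 42.0% for Gabrr2, at a median of 1814.5 UMIs per nucleus. Of the 207 rod bipolar nuclei with a Gabrr1 UMI, 53.6% also held Gabrr2, against 38.9% of those without. The first group was also deeper, with a median of 2463 UMIs against 1603, and the part of depth in this difference was not tested.

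ON and OFF cone bipolar cells, which depolarise to light onset and offset, differed in rho2 but not visibly in rho1. Gabrr2 was at 367, 518 and 322 CPM at 3 months and at 308, 491 and 207 CPM at 18 months in ON cells, and at 174, 326 and 165 CPM and 146, 202 and 101 CPM in OFF cells. The ON value was higher in 6 of 6 libraries, with a mean log2 difference of 1.01 ± 0.20 (SD, n = 6). This contrast and the other subclass contrasts below were chosen after the values were seen and are given with no test. For Gabrr1 the ON value was higher in 3 of 6 libraries, with means of 68.0 and 67.5 CPM. Among the 12 groups of nuclei within cone bipolar cells, Gabrr2 ran from 96.6 to 875 CPM. Its highest group, ON cells led by Cdh9, held 72 nuclei and had Gabrr2 UMIs from all 6 libraries. Gabrr1 spread less over the same 12 groups, from 34.7 to 118 CPM.

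Gabrr3, the gene of the third rho subunit and not one of the 7, averaged 80.4 ± 28.5 CPM in cone bipolar cells, 38.8 ± 22.6 CPM in cones and 30.2 ± 10.8 CPM in rod bipolar cells.

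Of the alpha subunits, Gabra2 was highest in the inner retina. The alpha2 subunit is a benzodiazepine-sensitive subunit of synaptic receptors. Gabra2 averaged 362 ± 42.2 CPM in ganglion cells, 257 ± 62.2 CPM in amacrine cells and 157 ± 76.8 CPM in horizontal cells, and between 23.3 and 91.4 CPM in the other 5 classes. In ganglion cells it was at 328, 346 and 359.6 CPM at 3 months and at 316, 427 and 396 CPM at 18 months, and every one of these values was above that of amacrine cells of the same library. Starburst amacrine cells, the cholinergic cells of the direction-selective circuit, were higher still, at 437 ± 95.1 CPM, and above glycinergic amacrine cells in 6 of 6 libraries. After thinning, 34.1% of starburst and 25.1% of ganglion cell nuclei held a Gabra2 UMI, against 2.35% of rods. In single libraries these shares were 23.3% to 37.0%, 22.5% to 30.7% and 0.703% to 10.1%. Within amacrine cells the 33 groups of at least 50 nuclei ran from 17.9 to 1216 CPM, and a glycinergic group led by Slc17a8, a vesicular glutamate transporter gene, reached 1080 CPM.

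Gabra3, which encodes another benzodiazepine-sensitive alpha subunit, was shared by amacrine and horizontal cells. It averaged 112 ± 13.02 CPM in amacrine cells and 110.3 ± 31.6 CPM in horizontal cells, and 45.2 ± 9.18 CPM in ganglion cells. Horizontal cells held 88.0, 109 and 94.4 CPM at 3 months and 74.2, 145 and 152 CPM at 18 months, in each library more than ganglion cells. Starburst cells were the exception among amacrine cells, at 30.5 ± 24.3 CPM against 132 ± 12.99 CPM in the other GABAergic amacrine cells, lower in 6 of 6 libraries. Replicates 2 and 3 at 3 months gave only 31 and 19 starburst nuclei. After thinning, the share of starburst nuclei with a Gabra3 UMI ran from 0% to 6.82% in single libraries. Starburst cells therefore had high Gabra2, read against glycinergic amacrine cells, and low Gabra3, read against the other GABAergic amacrine cells.

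**Figure D3:**
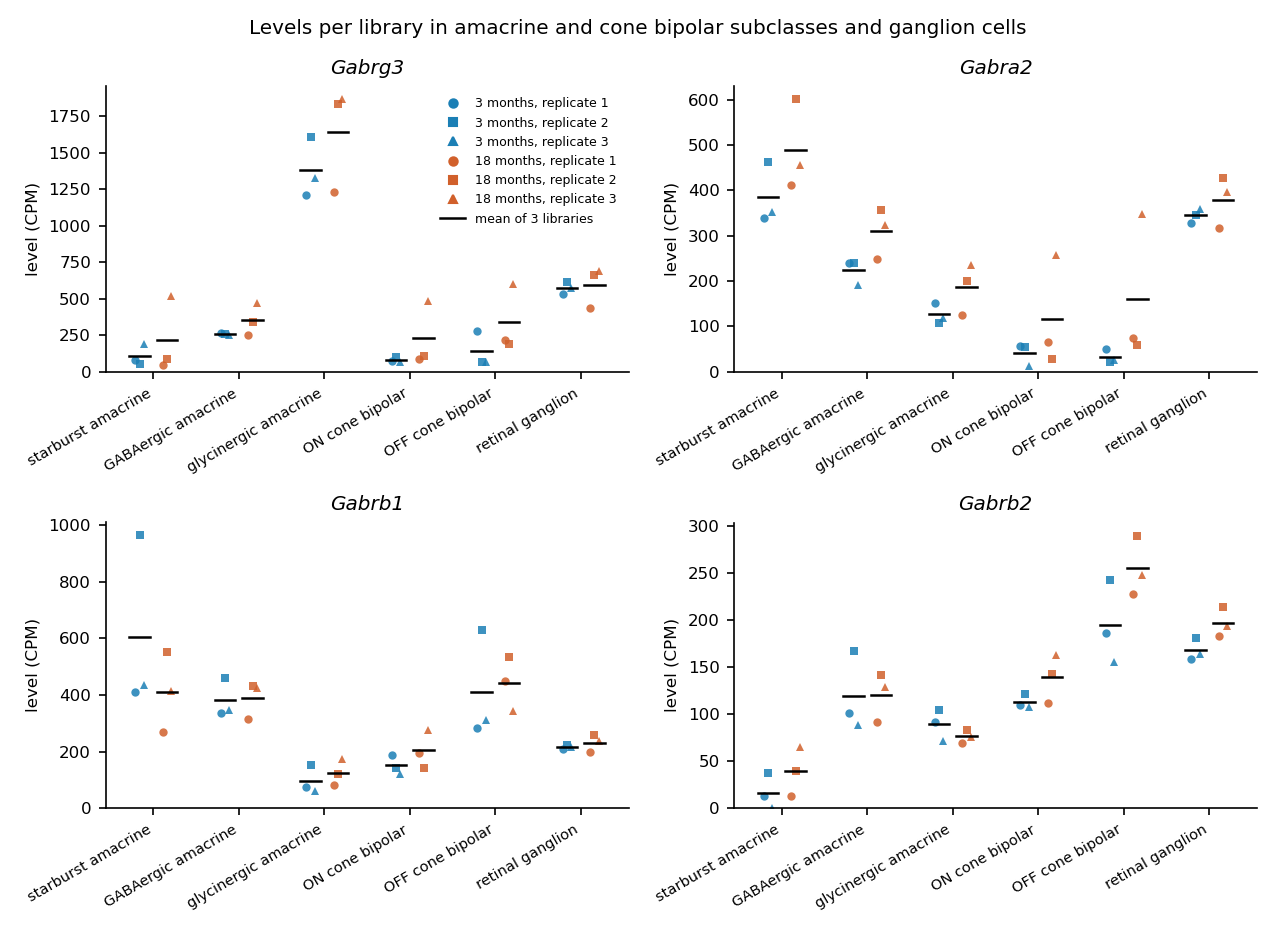
Level (CPM) of Gabrg3, Gabra2, Gabrb1 and Gabrb2 per library in 3 amacrine subclasses, 2 cone bipolar subclasses and ganglion cells; points are libraries and lines are means of 3 libraries of an age. Gabrg3 is highest in glycinergic amacrine cells in all 6 libraries, and Gabrb1 is lower there than in the other amacrine subclasses.

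The beta subunits Gabrb1 and Gabrb2, which line the GABA binding site together with alpha subunits, were shared by bipolar and inner retinal neurons. Gabrb1 averaged 318 ± 70.8 CPM in amacrine cells, 312 ± 56.8 CPM in cone bipolar cells and 223 ± 21.5 CPM in ganglion cells, against 97.2 ± 47.3 CPM in rod bipolar cells. Within cone bipolar cells, OFF cells held 426 ± 137 CPM and ON cells 178 ± 56.1 CPM, with OFF higher in 6 of 6 libraries, the reverse of the order for Gabrr2. Among amacrine cells, starburst cells held 507 ± 241 CPM, other GABAergic cells 385 ± 60.05 CPM and glycinergic cells 110.4 ± 46.9 CPM. Glycinergic cells were below both in 6 of 6 libraries. The highest of all groups of nuclei, at 1776 CPM, was a GABAergic amacrine group of 256 nuclei led by Cyp2j8.

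Gabrb2 averaged 183 ± 19.96 CPM in ganglion cells and 183 ± 35.2 CPM in cone bipolar cells, against 96.7 ± 24.7 CPM in amacrine cells and 8.94 ± 11.8 CPM in cones. Its level in OFF cone bipolar cells, 225 ± 47.5 CPM, was above that in ON cells, 126 ± 22.1 CPM, in 6 of 6 libraries. Starburst cells held 27.9 ± 23.9 CPM, below the other GABAergic amacrine cells in 6 of 6 libraries. The size of this log2 difference was uncertain, at 2.84 ± 1.91 (SD, n = 6). Replicates 2 and 3 at 3 months gave only 31 and 19 starburst nuclei, with 107901 and 48283 UMIs. After thinning, the share of starburst nuclei with a Gabrb2 UMI ran from 0% to 6.82% in single libraries. Ganglion cells were heterogeneous, with 28 groups from 6.13 to 721 CPM. The 7 groups with Foxp2, a transcription factor gene of several ganglion cell types, among their 10 leading genes ran from 132 to 589 CPM, against a median of 129 CPM over the 28 groups. They were singled out after the values were seen.

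Gabrg3 separated glycinergic from GABAergic amacrine cells. It encodes the gamma3 subunit, one of 3 alternative gamma subunits. Glycinergic amacrine cells held 1208, 1606 and 1329 CPM at 3 months and 1232, 1837 and 1867 CPM at 18 months, while the non-starburst GABAergic cells held 266, 257 and 251 CPM and 252, 337 and 473 CPM. The 2 subclasses did not overlap in any pair of libraries, and the means differed 4.94-fold. After thinning, 63.4% of glycinergic and 18.975% of GABAergic amacrine nuclei held a Gabrg3 UMI, against 2.38% of rods. In single libraries these shares were 50.7% to 74.2%, 14.5% to 33.5% and 0.865% to 16.2%. Ganglion cells averaged 585 ± 91.4 CPM and ran over 28 groups from 3.76 to 2997 CPM, the highest being a group of 128 nuclei led by Tbx20. Cones held 152 ± 54.5 CPM.

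**Figure D4:**
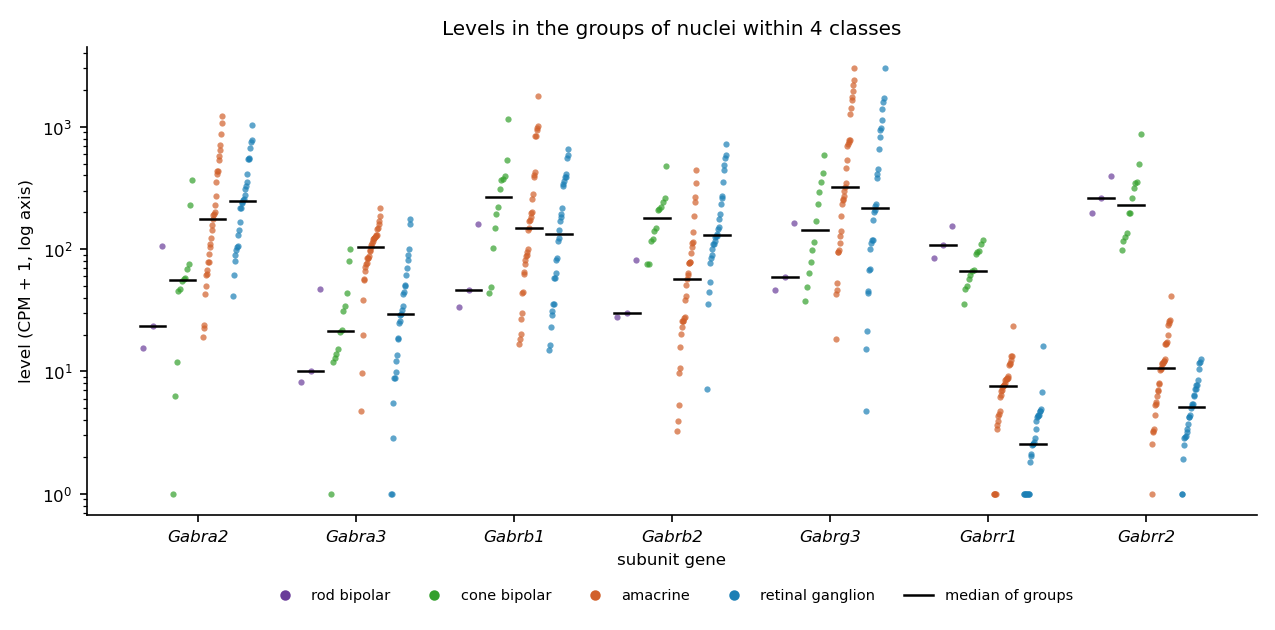
Level (CPM + 1, log axis) of each subunit gene in the groups of at least 50 nuclei within rod bipolar, cone bipolar, amacrine and ganglion cells; each point is 1 group over all libraries and lines are medians. Gabrr1 and Gabrr2 separate bipolar groups from amacrine and ganglion cell groups, and Gabrg3 spreads from 17.4 to 3001 CPM within amacrine cells.

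The order of the 8 classes by level was tested between neighbours for all 7 members, 49 pairs in all. In 12 pairs the difference in log2(CPM + 1) had the same sign in all 6 libraries, which gave p = 0.03125 in a two-sided exact sign-flip permutation test, the smallest p that 6 libraries allow. No pair passed after Benjamini-Hochberg adjustment, and the smallest adjusted p was 0.128 by the same exact test. With that smallest p, a pair could pass only if most of the 49 pairs reached it, so the adjusted test could not decide on single pairs. The neighbours were also set by the means of the same libraries. Cone bipolar cells above the third class were among the 12 pairs for both rho genes: Gabrr1 over horizontal cells by 1.96 and Gabrr2 over rods by 3.25 on the log2 scale. The 2 highest classes could not be put in order for most members. Gabrg3 differed by 0.01 between amacrine and ganglion cells, Gabrb2 by 0.02 between ganglion and cone bipolar cells, Gabrb1 by 0.02 between amacrine and cone bipolar cells and Gabrr2 by 0.12 between rod and cone bipolar cells, with exact p of 1, 0.75, 0.906 and 0.688.

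Genes with the most similar class profile were named by Pearson correlation of log2(mean CPM + 1) over the 8 classes among 10919 genes, as a description, since the 8 points share libraries and depth. Nearest to Gabrr1 were Cpne7 (r = 0.969), Trpm1, the transduction channel gene of ON bipolar cells (r = 0.968), and Gm9195 (r = 0.966). Nearest to Gabrr2 were Igfn1 (r = 0.995), 4933429O19Rik (r = 0.978) and Gm534 (r = 0.977). Trpm1 and Igfn1 were among the markers used to name bipolar classes, so their profiles were partly set by the naming. Gabra2 was nearest to Rbfox3, the gene of the neuronal nuclear antigen NeuN (r = 0.984), followed by Jph4 and Disp2. Gabra3 was nearest to Nrg1 (r = 0.989), Tenm1 and Plcxd3, Gabrb1 to Tenm2 (r = 0.983), Arhgef25 and Apba2, and Gabrb2 to Prr16 (r = 0.984), Kcnb2, a voltage-gated potassium channel gene, and Nkain3. Among the genes nearest to Gabrg3 were Setd4 (r = 0.976) and R3hdm1 (r = 0.976).

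The 12 other GABA-A receptor subunit genes include possible partners of the members, and those named here were picked after their levels were seen. Gabra6 had 0 of 64796231 UMIs in the 8 classes, which allows up to 0.0463 CPM for counting error, Gabrp had 1 and Gabre 6.

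Between the ages, no member passed in any class in the reported edgeR fit, with age as the only term and the low-count filter. Other fits gave calls, as described below. A replicate block called 4 pairs of member and class and a term for the Cell Ranger release 1. With age still the only term, DESeq2 called 1, and edgeR called 5 with no low-count filter and 3 within release 7.2.0. Of the 56 pairs of member and class, 39 had enough counts to be tested, and edgeR's quasi-likelihood test on summed counts with age as the only term called 0 of them at a Benjamini-Hochberg adjusted p of 0.05 over all genes of the class. Over the 69892 tests of all genes in the 8 classes the share called was 0%. At an unadjusted p under 0.05 there were 9 of the 39 pairs and 2181 of the 69892, and DESeq2 called 1 member, Gabrb1 in horizontal cells. With 4-fold changes placed in simulated counts the same test called 191 of 200 amacrine genes and 148 of 167 Müller glia genes, and with 2-fold changes 3 of 200 and 1 of 172. These changes were placed in up to 200 genes at once, all above a minimum mean level. Counts were drawn independently for each library, without differences of release or library quality, so these shares cannot be carried over to the members.

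The fitted log2 difference was 1 or more, higher at 18 months, in 10 of the 39 pairs and -1 or less in none. Over all genes tested, 1.95% had a difference of 1 or more. By class the pairs numbered 3 in cone bipolar cells, beside 2.28% of all genes there, and 2 in rods, beside 5.11%. There was 1 each in rod bipolar (0.693%), amacrine (0.761%), horizontal (3.36%), ganglion (0.913%) and Müller glial cells (1.54%), and 0 in cones (1.22%). The median over the 39 pairs was 0.44. In cone bipolar cells Gabra2 was at 52.3, 39.9 and 21.1 CPM at 3 months and at 70.9, 46.0 and 318 CPM at 18 months, a log2 difference of 1.93 ± 0.73 (SE). Without that library the difference was 0.50, and in cone bipolar cells Gabrg3 went from 1.36 to 0.38 and Gabra3 from 1.35 to 0.61. With no low-count filter edgeR called Gabra2 and Gabrg3 in cone bipolar cells, with 0.29% of genes called. In the same library the summed level of 17 amacrine markers in cone bipolar cells was 2780 CPM against 1328 to 2289 in the other 5 libraries, and that of 15 ganglion cell markers 1106 against 411 to 862 CPM, with UMIs from all 17 and all 15. Their part in the result was not tested.

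For the rho genes no fitted difference in bipolar cells passed. In rod bipolar cells the log2 difference was -0.13 ± 0.44 (SE) for Gabrr1 and -0.10 ± 0.42 for Gabrr2, and in cone bipolar cells -0.04 ± 0.37 and -0.42 ± 0.39, with an adjusted p of about 0.999 or above in edgeR's test. Gabrr2 had log2 differences of 1.45 ± 0.61 in amacrine cells and 1.67 ± 0.68 in ganglion cells, classes where it averaged 10.7 and 6.46 CPM. It was at 6.62, 12.9 and 28.6 CPM in amacrine cells and at 2.94, 7.35 and 20.2 CPM in ganglion cells at 18 months, highest in replicate 3 in both. Without that library the differences were 0.80 and 0.81. Summed rod bipolar markers were also highest in that library, at 1099 and 744 CPM, and their part was not tested.

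Gabrb1 in Müller glia, the supporting glia of the retina, was called under some models and not under others. It was at 21.6, 0 and 51.1 CPM at 3 months and at 76.3, 125 and 196 CPM at 18 months, from 15 and 77 UMIs. The ages did not overlap, but the 0 in replicate 2 at 3 months came from a class total of 85573 UMIs, which allows up to 35.1 CPM. The log2 difference was 2.32 ± 0.65 (SE), with an adjusted p of 0.606 in edgeR's test, in which 0% of the 3253 genes tested in Müller glia were called. With the Cell Ranger release as an added term it was 2.04 with an adjusted p of 0.0468, and 1.94% of the genes were called. With the replicate number as a block it was 2.18 with an adjusted p of 0.0108, and 3.5% were called. Within release 7.2.0 alone the log2 difference was 2.49 with an adjusted p of 0.310 in edgeR's test, and in release 7.1.0 the single libraries stood at 21.6 and 76.3 CPM.

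Other ways to assign nuclei gave a larger Müller glia class and a smaller difference. The class held 941 nuclei, of which replicates 2 and 3 at 3 months and replicate 3 at 18 months gave 49, 55 and 44. Without doublet removal it held 3784 nuclei and the log2 difference of Gabrb1 was 0.65, and with a marker gate on single nuclei 2658 nuclei and 0.88. At 18 months the summed level of rod markers in Müller glia was lower, from 8038 to 12198 CPM against 20070 to 27404 CPM at 3 months, while that of 17 amacrine markers was 2500 to 2827 against 2139 to 2517 CPM and that of 18 cone bipolar markers 947 to 1413 against 524 to 935 CPM. A higher median at 18 months was found for 0 of 15 rod, 10 of 17 amacrine and 10 of 18 cone bipolar markers. Their part in the result was not tested.

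The age difference of Gabrb1 was compared between Müller glia and each other class by the interaction of class and age in an edgeR fit per pair of classes, with a term for each library because both sums come from the same libraries. It exceeded that of amacrine cells by 2.39 ± 0.53 (SE, adjusted p = 0.0186) and that of ganglion cells by 2.17 ± 0.52 (adjusted p = 0.0377). In these 2 fits 0.0646% and 0.0893% of all genes were called. In amacrine cells Gabrb1 was at 256, 434 and 314 CPM at 3 months and at 234, 345 and 326 CPM at 18 months, so the ages overlapped there. These were 2 of 38 pairs of member and class tested, and the call against amacrine cells held in 2 and that against ganglion cells in 1 of 12 alternative settings. Without replicate 3 at 18 months edgeR gave 2.26 for the difference from amacrine cells (adjusted p = 0.0126), and leaving out any other library ended that call, with values from 1.85 to 2.59. Leaving out any library ended the call against ganglion cells, with values from 1.88 to 2.58.

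**Figure D5:**
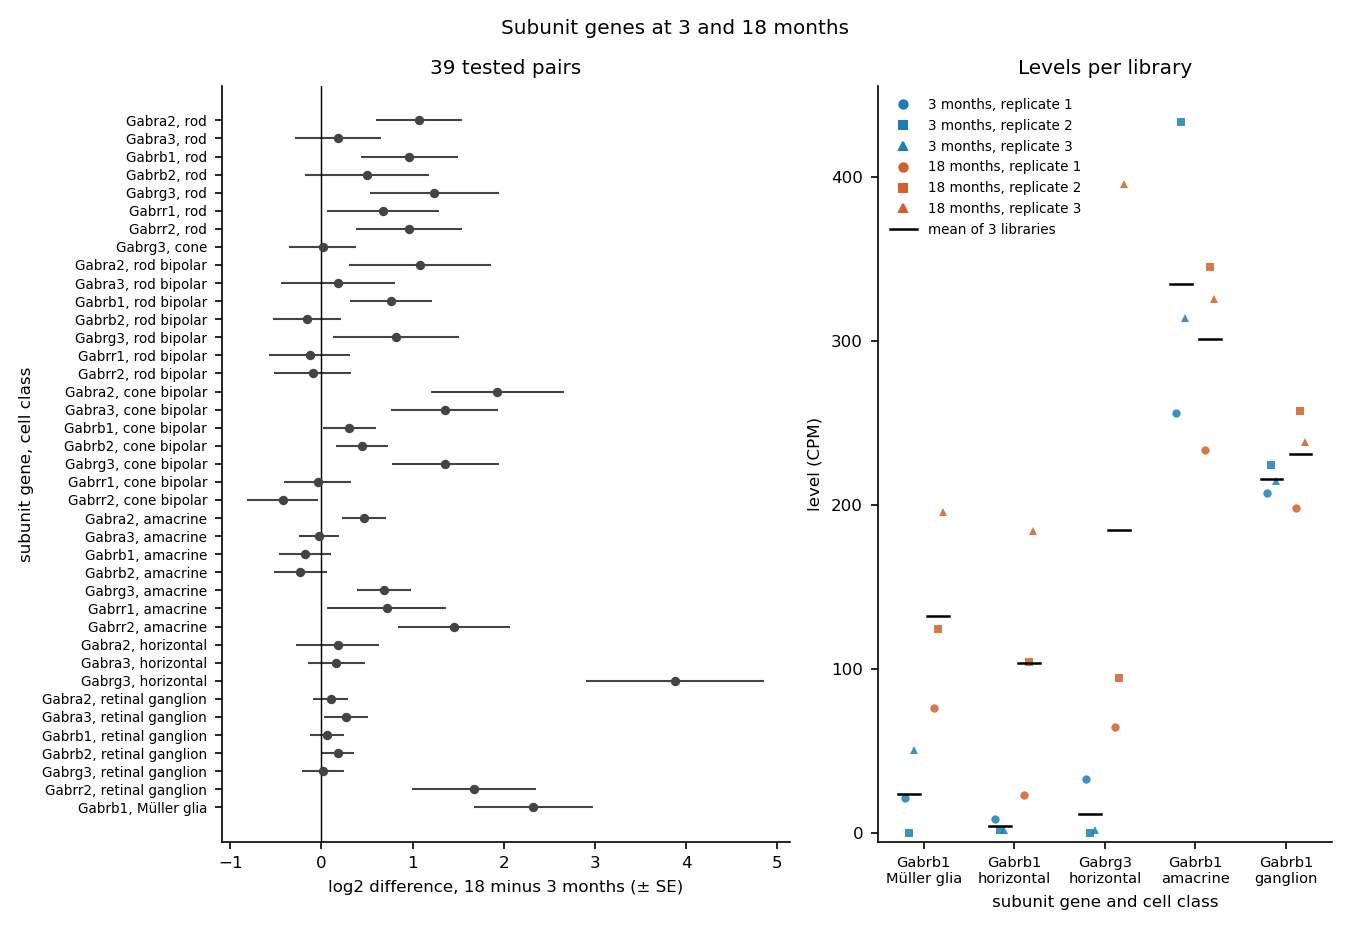
Left, log2 difference between 18 and 3 months with its standard error for the 39 tested pairs of subunit gene and class; right, level (CPM) per library for 5 pairs, with lines at the means of 3 libraries. None of the 39 passed the test, and Gabrb1 in Müller glia ranges from 0 to 51.1 CPM at 3 months and from 76.3 to 196 CPM at 18 months.

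Horizontal cells, whose processes contact photoreceptor terminals, showed the highest fitted difference. Gabrg3 was at 33.4, 0 and 2.25 CPM at 3 months and at 64.9, 94.7 and 395 CPM at 18 months, from 12 and 130 UMIs, with a log2 difference of 3.88 ± 0.97 (SE) and an adjusted p of 0.568 in edgeR's test. Without replicate 1 at 18 months it was 4.23 with an adjusted p of 0.0322, with 1.71% of genes called. Gabrb1, too low there for the main test, was at 9.10, 2.36 and 2.25 CPM at 3 months and at 23.2, 104 and 184 CPM at 18 months. DESeq2 gave it a log2 difference of 4.42 with an adjusted p of 0.0018, among 0.519% of genes called. For both genes the ages did not overlap. Within release 7.2.0 edgeR called both, with 3.45% of genes called, and with no low-count filter it called both and Gabrb2, with 1.2% called. In replicate 3 at 18 months the summed level of 13 horizontal cell markers was 4069 CPM against 10184 to 14646 CPM in the other 5 libraries, and that of 16 amacrine markers 1862 against 788 to 1333 CPM. Bipolar markers in horizontal cells were higher at 18 months in every library, at 742 to 1476 against 414 to 604 CPM for 14 rod bipolar markers (13 with a higher median) and at 626 to 1145 against 366 to 534 CPM for 18 cone bipolar markers (14 with a higher median). Without that library the difference of Gabrg3 was 2.80 with no call, and the part of these markers was not tested.

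In rods all 7 members had a higher fitted level at 18 months, with a median log2 difference of 0.96, beside 0.02 over all genes tested there. Gabra2 was at 28.0, 21.7 and 30.4 CPM at 3 months and at 45.0, 38.1 and 126 CPM at 18 months, and its ages did not overlap. Without replicate 3 at 18 months its log2 difference fell from 1.07 to 0.42, and 2 of the 7 members turned negative. With the replicate number as a block, edgeR called Gabra2 (1.01, adjusted p = 0.0422), Gabrb1 (1.08, adjusted p = 0.0439) and Gabrg3 (1.248, adjusted p = 0.0256), while 10.6% of all genes tested in rods were called. Within release 7.2.0 it called Gabrr2 alone of the 7, with 5.52% of genes called. In rods the summed level of 17 amacrine markers was 1534 to 1866 CPM at 18 months against 885 to 1385 CPM at 3 months, and 15 of the 17 had a higher median at 18 months. That of 14 rod bipolar markers was 1219 to 1415 against 704 to 1192 CPM, and that of the 15 rod markers 30079 to 41559 against 51024 to 85829 CPM. Their part in the result was not tested.

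The other genes of GABA signalling gave no call between the ages in the same test. Of the 12 other subunit genes, between 1 and 7 had enough counts in a class, and 0 passed in any class in either direction. Of 32 genes of GABA synthesis, transport, receptor anchoring, chloride transport and GABA-B signalling, 10 to 31 were tested per class and 0 passed. The median log2 difference of these 32 ran from -0.06 in amacrine cells to 0.30 in Müller glia, beside medians over all genes of -0.01 and 0.01. With the replicate block in rods, where 10.6% of all genes were called, 1 of 5 other subunit genes tested was called higher in edgeR's test. Of the 32, 29 were tested in that fit and 2 rose, Lhfpl3 and Kctd8, an auxiliary subunit gene of GABA-B receptors, and 1 fell, Zdhhc3, which encodes a palmitoyltransferase.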

How the data were processed

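Nuclei were isolated from retinas and sequenced as 10x 3′ v3.1 libraries, per the labels' protocols. The deposited files hold raw counts of UMIs per gene and nucleus that the authors made with Cell Ranger 7.1.0 (both replicates 1) or 7.2.0, per the file headers, on mm10, per the submitters' processing notes, which also name Seurat. The counting annotation, and whether introns and strand were used, are not given in the sources used here.

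Nuclei with at least 300 genes and at most 5% mitochondrial UMIs were kept, and those with the highest Scrublet scores were removed at 0.8% per 1000 nuclei of a library, since the automatic threshold marked almost none. Clustering used scanpy 1.11.5 and leidenalg 0.10.2 (2000 variable genes without GABA receptor genes, 30 components, 15 neighbours, resolution 1, then 0.5 within clusters of at least 60 nuclei). The 162 clusters were named where at least 3 markers of a class or its subclasses were detected and led, by rules partly set after the clusters were seen, and 37 stayed unnamed. Subclass names rest on the same markers, and rebuilt names may differ from the study's.

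UMIs were summed per library and class. CPM divides by the class total, and log2 values add 1. edgeR 4.0.16 (R 4.3.3, quasi-likelihood test, TMM, low-count filter, Benjamini-Hochberg over all genes of a class, called at 0.05) compared the ages with age as the only term, and its interaction fit compared age differences between classes. DESeq2 1.42.0, a replicate block, a release term and other filters and cluster settings were alternatives. The members and gene lists were chosen with earlier results of these data known. Named genes are the members, the 3 genes nearest to each by profile (among genes with a mean of at least 20 CPM in a class), and up to 4 list genes per class called in an age fit. Some genes that this rule names, and levels of some other subunit genes, are not reported here. Deviations of samples with the same replicate number correlated at over 0.1 in every pair in 3 of 8 classes (rods, ganglion cells and Müller glia). In the other classes only the pair of replicates 3 was lower. The test was checked on simulated counts. Intervals and floors (3 counts) cover counting error only.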

Additional observations from a re-analysis of the deposited data

Results flagged for a closer look

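The age difference of Gabrb1 in Müller glia was larger than in amacrine cells by 2.39 on the log2 scale (SE 0.53, adjusted p = 0.0186 in edgeR's interaction test) and larger than in ganglion cells by 2.17 (SE 0.52, adjusted p = 0.0377). Both stand out because the difference between classes itself passed the test. They rest on 15 UMIs of Gabrb1 in Müller glia at 3 months and 77 at 18 months, and the range over 12 alternative settings was 0.75 to 2.59 and 0.73 to 2.58.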

How the results depend on the processing

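The rho genes kept their bipolar distribution: in 77 of 77 combinations of a member and 1 of 11 alternatives the 2 highest classes were those reported. The single highest class was the same for 2 of 7 members with a marker gate on single nuclei and for 4 to 7 when 1 library was left out. Without thinning, the share of nuclei with a UMI was 48.1% for Gabra2 and 34.4% for Gabrb2 in ganglion cells, 19.3% for Gabra3 and 27.2% for Gabrb1 in amacrine cells, and 21.4% for Gabrr1 and 42.0% for Gabrr2 in rod bipolar cells.

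Calls between the ages depended on the model. Against 0 in the reported fit, the members' calls numbered 1 with the release term, 4 with the replicate block, 1 with DESeq2, 5 with no low-count filter, 3 within release 7.2.0 and 0 to 2 when 1 library was left out. Over all genes these fits called 624, 1309, 42, 303, 907 and 0 to 104. The fit within release 7.2.0 and those that join a further change to the release term were chosen after seeing the data. Joined to that term, a mitochondrial limit of 10% gave 4 members and 1668 genes, no doublet removal 2 and 985, Leiden resolution 2 gave 1 and 1323, and the marker gate 1 and 137. Joined to leaving out replicate 2 or 3 at 3 months it called 0 members and 5 or 28 genes, and without replicate 2 or 3 at 18 months 1 member and 82 or 1485 genes. The replicate block pairs libraries by number, a pairing that the labels do not give. Its 4 calls were Gabrb1 in Müller glia and 3 members in rods. In both classes deviations of same-numbered libraries correlated at over 0.1 in every pair, the lowest at 0.11 for replicates 3 in Müller glia. Libraries of different number were not compared, and both replicates 1 share a release. These correlations therefore cannot tell a pairing from the release.

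The difference of Gabrb1 between Müller glia and amacrine cells was no longer called with no low-count filter (2.27), a mitochondrial limit of 10% (1.40), no doublet removal (0.78), Leiden resolution 2 (1.36) or the marker gate (0.75), and ran from 1.85 to 2.59 when 1 library was left out. Against ganglion cells the values were 2.23, 1.19, 0.73, 1.39 and 0.83, and 1.88 to 2.58. The first 4 of these settings called 0 of the members' pairs, and leaving out a library 0 to 1. The marker gate did call members' pairs, all against horizontal cells, where 108 of 8871 genes were called. The causes were not tested.

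Age differences of the rho genes in bipolar cells, called under no setting, changed sign. In rod bipolar cells Gabrr2 ran from -0.45 to 0.19 when 1 library was left out and turned to 0.16 with no doublet removal and 0.20 with the gate. Gabrr1 there ran from -0.74 to 0.22 and turned to 0.0076 within release 7.2.0. In cone bipolar cells Gabrr2 turned to 0.32 with the gate. Gabrr1 there ran from -0.32 to 0.24 and turned to 0.013 with no filter, 0.021 with the mitochondrial limit, 0.15 with no doublet removal, 0.068 at resolution 2 and 0.0068 within release 7.2.0. Few Müller glia, rod bipolar and horizontal nuclei per library limit these values.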

Other observations

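The 17965 nuclei that could be given no class held every member. In them Gabrg3 was at 278, 365 and 283 CPM at 3 months and at 271, 259 and 569 CPM at 18 months, and Gabra2 at 132, 125 and 121 CPM and 157, 142 and 276 CPM. Both were highest in replicate 3 at 18 months, the library in which 72.1% of nuclei had no class. Gabrr2 ran the other way, at 84.9, 77.5 and 59.96 CPM at 3 months and 63.1, 92.2 and 55.998 CPM at 18 months, with its lowest value in that library.

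Over all 50241 nuclei kept, with no use of classes, Gabrg3 was at 339.6, 360.5 and 371 CPM at 3 months and at 331, 351 and 601 CPM at 18 months, and Gabrb1 at 162, 169.6 and 158 CPM and 169, 181 and 247 CPM. For both genes the first 2 libraries at 18 months lay near those of 3 months and the third stood above them.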
